A study of Mus musculus with 8 samples.

Results

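Pou4f3, Gfi1, Lhx3, Barhl1, Rbm24 and Atoh1 are the factors most closely tied to the making and upkeep of the hair cell, and their rows were taken by symbol from the gene counts of the mouse inner ear. All 6 symbols were found among the 47517 in each file, and 5 of them passed the expression filter. The libraries came from whole inner ears of untreated mice at postnatal day 14, although the series title speaks of the cochlea. Mutant mice were heterozygous for a frameshift in Thra that changes how the thyroid hormone receptor TRα1 works (4 libraries), and the wild-type mice were their littermates (4 libraries). No transgene, Cre driver or clone is named for either group, and the labels do not say whether a library is 1 animal, 1 ear or a pool. The p-values below therefore measure the spread between these libraries, which may in part be technical. Totals lay between 19662433 and 23064578 counts in mutant libraries and between 18930841 and 22028397 in wild-type libraries. Thra itself averaged 127 CPM (counts scaled by the normalized library size) in mutant and 107 CPM in wild-type libraries (edgeR log2 fold change 0.24, SE 0.09, adjusted p = 0.924), and counts per gene do not show the frameshift. No library stood at 0 for any of the 10 defining hair cell markers, among them Otof, Tmc1, Strc and Slc26a5. Their summed level was 122 to 145 CPM in mutant libraries and 119 to 167 CPM in wild-type libraries.

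Hair cells are the mechanosensory cells of the cochlea and the vestibular organs. Atoh1, a basic helix-loop-helix factor, starts their differentiation in the embryo and is then switched off as the cells mature. Pou4f3, a POU-homeodomain factor, acts downstream of it and keeps hair cells alive, and Gfi1, a zinc-finger repressor that lies in turn downstream of Pou4f3, keeps neuronal genes silent in them. Lhx3 (LIM-homeodomain) and Barhl1 (BarH-like homeodomain) are hair cell homeobox factors, and loss of Barhl1 leads to progressive hair cell degeneration in mice. Rbm24 is an RNA-binding protein that controls splicing in hair cells and in striated muscle. The comparison sets these factors in mutant ears against wild-type ears at about the onset of hearing.

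The sequences before the start sites of Lhx3, Barhl1 and Rbm24 are shown. Each of these genes stood in at least 1 of the gene pairs whose levels correlated across libraries, as given further on. So did Gfi1, whose sequences are not shown. The sequences shown are RefSeq promoter windows of GRCm38.p6, cut so that no annotated exon is included. RefSeq entries were matched for 5 of the 6 genes. Capitals mark the E-box CANNTG, the motif that Atoh1 binds together with an E protein.
Lhx3, chr2:26208290-26208499, minus strand: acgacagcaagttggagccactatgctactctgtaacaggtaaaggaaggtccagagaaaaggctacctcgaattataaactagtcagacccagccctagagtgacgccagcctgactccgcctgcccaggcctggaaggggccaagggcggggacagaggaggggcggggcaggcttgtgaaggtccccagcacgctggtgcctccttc
Barhl1, chr2:28916669-28916918, minus strand: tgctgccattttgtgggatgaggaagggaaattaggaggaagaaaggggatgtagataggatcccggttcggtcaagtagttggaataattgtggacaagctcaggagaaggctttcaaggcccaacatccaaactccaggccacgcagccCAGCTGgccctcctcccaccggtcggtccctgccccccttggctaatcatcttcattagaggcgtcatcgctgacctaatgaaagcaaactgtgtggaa
Rbm24, chr13:46418050-46418299, plus strand: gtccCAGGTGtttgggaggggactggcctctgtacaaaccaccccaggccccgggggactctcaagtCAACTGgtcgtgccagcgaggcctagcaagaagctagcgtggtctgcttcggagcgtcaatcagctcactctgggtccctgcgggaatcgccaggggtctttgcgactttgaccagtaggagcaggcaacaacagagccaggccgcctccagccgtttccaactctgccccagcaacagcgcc

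In the 250 bases before the start, read on both strands, Rbm24 held 2 E-boxes and Barhl1 held 1 at the start sites shown. Lhx3 held 0 at the start shown and 1, which reads CAGATG, at its second start. Both start sites of Gfi1 held 1 and the only one of Atoh1 held 0. Of all 32851 promoter windows of that length 66.2% held an E-box, so these matches are not set apart from promoters at large. The form CAGATG, which overlaps the E-box, occurred in 14.4% of the windows. The homeodomain core TAATTA was found in 4.84% of windows and in none of those of the 5 genes, and the Gfi1 core AAATCA was found in 12.4% of windows and, among these genes, at the second start of Barhl1. These matches describe letters in a window and not binding.

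Atoh1 was close to the limit of detection in both genotypes. It had 4, 13, 2 and 4 counts in mutant replicates 1 to 4 and 4, 2, 1 and 10 counts in wild-type replicates 1 to 4, and a floor of 3 counts corresponded to 0.13 to 0.158 CPM. Only mutant replicate 2 and wild-type replicate 4 stood clear of the others, and the genotypes overlapped. The sums were 23 counts in mutant libraries (exact Poisson interval 14.6 to 34.5, 95%, counting error only) and 17 in wild-type libraries (9.9 to 27.2). Means were 0.271 ± 0.223 CPM in mutant and 0.201 ± 0.181 CPM in wild-type libraries (SD, n = 4 each), a log2 ratio of 0.43 that was within the spread (two-sided exact permutation p = 0.571). The gene, a single exon at chr6:64729125-64731245 on the plus strand, did not pass the expression filter. Fitted without that filter, it had a log2 fold change of 0.42 (SE 0.86, edgeR adjusted p = 0.991). Without mutant replicate 2 the log2 ratio was -0.31, so 1 library sets its sign, and no difference was detectable at this depth. For this gene and for those that follow, fewer hair cells and less RNA per hair cell cannot be told apart in a whole organ.

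Pou4f3 (chr18:42394539-42397249, plus strand) was the steadiest of the 6. Its level was 7.59, 7.73, 6.11 and 7.09 CPM in mutant replicates 1 to 4 and 6.55, 6.62, 8.48 and 8.56 CPM in wild-type replicates 1 to 4. The lowest value was that of mutant replicate 3 and the highest that of wild-type replicate 4, and the groups overlapped. The log2 fold change was -0.08 (SE 0.15, 95% interval -0.42 to 0.25, edgeR adjusted p = 1), which spans folds of 0.749 to 1.19. Its coefficient of variation was 10.3% in mutant and 14.8% in wild-type libraries, against 8.16% and 8.06% from counting alone.

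Gfi1 (chr5:107716657-107726036, minus strand) varied more. Mutant replicates 1 to 4 had 6.41, 10.8, 4.65 and 7.04 CPM, and wild-type replicates 1 to 4 had 5.48, 9.35, 10.1 and 9.06 CPM. Mutant replicate 2 was the highest library of all and mutant replicate 3 the lowest, while wild-type replicate 1 lay well below the other wild-type libraries. The log2 fold change was -0.23 (SE 0.28, 95% interval -0.86 to 0.40, edgeR adjusted p = 1). The coefficient of variation was 35.6% in mutant and 24.2% in wild-type libraries, 4.4 and 3.17 times what counting gives. A non-coding gene on the other strand, A430072P03Rik, overlaps Gfi1 and had 6 to 17 counts in mutant and 4 to 13 in wild-type libraries. Whether counting used strand is not stated in the sources used here, so reads of such overlapping partners cannot be told apart.

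Gfi1 is also active in blood-forming cells, where it drives granulocyte development, and the bone around the inner ear holds marrow. All 16 neutrophil lineage markers were detected in every library, and they summed to 706, 1913, 722 and 1155 CPM in mutant replicates 1 to 4 and to 1113, 2149, 601 and 1624 CPM in wild-type replicates 1 to 4. Both quantities were high in mutant replicate 2 and in wild-type replicates 2 and 4. In wild-type replicate 3, however, the neutrophil sum was the lowest of the 8 libraries while Gfi1 was at its wild-type maximum. Mpo, the myeloperoxidase of neutrophil granules, was at 31.9 CPM there, against 161 CPM in wild-type replicate 2. Mmp9, also on the list, went the other way between these 2 libraries. It alone made up 271, 185, 206 and 194 CPM of the sum in mutant replicates 1 to 4. In wild-type replicates 1 to 4 it made up 258, 86.8, 176 and 302 CPM. Lymphoid progenitor markers, also all detected, summed to 65.8 to 169 CPM in mutant and 111 to 238 CPM in wild-type libraries. The part of these cells in the level of Gfi1 was not tested.

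Lhx3 (chr2:26200212-26208289, minus strand) had the widest spread among the 5 genes tested. Its level was 0.658, 2.62, 0.727 and 1.59 CPM in mutant replicates 1 to 4, resting on 15, 57, 15 and 30 counts. In wild-type replicates 1 to 4 it was 0.743, 1.21, 2.34 and 1.56 CPM, from 16, 23, 45 and 34 counts. The highest library exceeded the lowest by 3.98 times within the mutant group and 3.15 times within the wild-type group, and the ranges of the genotypes nearly coincided. The log2 fold change was -0.06 (SE 0.51, 95% interval -1.22 to 1.09, edgeR adjusted p = 1), so a change of either sign by a factor as large as 2.13 lies within the interval. Its sign turned without mutant replicates 1 or 3 (0.17 and 0.15) or wild-type replicate 3 (0.25). Gm27196, an antisense gene that overlaps Lhx3, had 10 to 26 counts in mutant and 9 to 19 in wild-type libraries, highest in mutant replicate 2 like Lhx3 itself.

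Lhx3 is known outside the ear from the pituitary and from motor neurons. Of 9 pituitary markers 3 were tested, and all 9 together summed to 2.37 to 7.08 CPM in mutant and 1.52 to 13.1 CPM in wild-type libraries. Growth hormone, Gh, was highest in wild-type replicate 4 at 11.1 CPM, where Lhx3 stood at 1.56 CPM. Mutant replicate 2, the library with the most Lhx3, held 33 counts of Pou1f1, a pituitary transcription factor, and the other 7 libraries held 0. It also had the most Tshb, a subunit of thyrotropin, with 28 counts, against 0 to 19 in the other mutant libraries and 0 to 15 in wild-type libraries. Without that library the edgeR log2 fold change of Lhx3 was -0.56, and the part of pituitary RNA in its level was not tested. Motor neuron markers summed to at most 1.24 CPM in mutant and 0.945 CPM in wild-type libraries, and 2 of the 4 had no count in any library.

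Barhl1 (chr2:28907679-28916668, minus strand) was low, with 14, 19, 8 and 16 counts in mutant replicates 1 to 4 and 12, 21, 27 and 15 in wild-type replicates 1 to 4. These correspond to 0.615, 0.874, 0.388 and 0.847 CPM in mutant libraries and 0.557, 1.10, 1.40 and 0.690 CPM in wild-type libraries. Wild-type replicates 2 and 3 lay above each mutant library, whereas wild-type replicates 1 and 4 lay among them. The log2 fold change of -0.46 was the most negative of the 5 but did not pass (SE 0.40, 95% interval -1.37 to 0.45, edgeR adjusted p = 1). Sample titles hold 1 number in replicates 1 and 4 and 2 numbers in replicates 2 and 3 of each genotype, which was treated as a possible batch. Among libraries with 1 number the mutant minus wild-type difference of Barhl1 was 0.19 in log2 CPM and among those with 2 numbers it was -0.97, with 2 libraries per genotype in each and no test of the contrast between them.

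Barhl1 is also a gene of cerebellar granule neurons. Gabra6, a receptor subunit that defines those neurons, had 0.219, 1.56, 0.0969 and 0.212 CPM in mutant replicates 1 to 4 and 0, 0.788, 2.50 and 0.966 CPM in wild-type replicates 1 to 4. Its maximum fell in wild-type replicate 3 and its mutant maximum in replicate 2, as for Barhl1. Zic1, also on the list, shared this, at 32.5 CPM in wild-type replicate 3 and 28.8 CPM in mutant replicate 2. Cbln1, Cbln3, Neurod2 and Zic2 also had their wild-type maximum in replicate 3, but not their mutant maximum in replicate 2. Fat2 and Pcp2 had their wild-type maximum in replicate 1. Fat2, a cadherin of granule neurons, was lowest in mutant replicate 2 (14.6 CPM) and highest in wild-type replicate 1 (28.1 CPM). Neurod1, a neuronal basic helix-loop-helix factor not on this list, was also highest in wild-type replicate 3, at 5.57 CPM. It was next highest in mutant replicate 2, at 2.21 CPM. The 8 cerebellar markers together summed to 129, 129, 126 and 141 CPM in mutant replicates 1 to 4, and wild-type replicates 1 to 4 had sums of 115, 113, 150 and 118 CPM. The sum was highest in wild-type replicate 3, as for Barhl1, but its mutant maximum was in replicate 4. Zic2 alone made up 76.3, 73.6, 72.8 and 80.6 CPM of the sum in mutant replicates 1 to 4. In wild-type replicates 1 to 4 it made up 67.9, 59.5, 74.7 and 68.0 CPM. The part of cerebellar cells in the level of Barhl1 was not tested.

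Rbm24 (chr13:46418434-46431095, plus strand) had nearly the same mean in both genotypes. Mutant replicates 1 to 4 had 4.17, 9.84, 5.96 and 5.35 CPM of it, and wild-type replicates 1 to 4 had 4.04, 6.30, 9.0 and 6.03 CPM. Mutant replicate 2 and wild-type replicate 3 were the high libraries, as for Lhx3. The means were 6.33 ± 2.46 CPM in mutant and 6.34 ± 2.04 CPM in wild-type libraries (SD, n = 4 each). On the log2 scale edgeR put the difference at -0.0016 (SE 0.31, 95% interval -0.70 to 0.70, adjusted p = 1). Its sign turned without mutant replicate 1 (0.15), 3 (0.026) or 4 (0.070) or wild-type replicate 3 (0.21). Differences within title form were -0.06 among libraries with 1 number and 0.02 among those with 2. Counts per gene do not show which exons were joined, so the splicing that Rbm24 controls was not analysed here.

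Skeletal muscle, another known site of Rbm24, left a small trace. Its 12 markers summed to 51.0, 37.8, 52.4 and 54.7 CPM in mutant replicates 1 to 4 and to 59.2, 46.3, 48.6 and 46.9 CPM in wild-type replicates 1 to 4. The sum was lowest in mutant replicate 2, the library with the most Rbm24, and the part of muscle in the level of Rbm24 was not tested. Pygm alone made up 35.7, 25.8, 34.2 and 40.5 CPM of the sum in mutant replicates 1 to 4. In wild-type replicates 1 to 4 it made up 34.7, 30.0, 34.8 and 29.7 CPM. Ckm, the muscle creatine kinase, was at 0 in mutant replicate 3 and wild-type replicate 2 and below 1 CPM in each of the others. Its maximum, 0.988 CPM, was in wild-type replicate 3, where Rbm24 was highest in its genotype. The mutant maximum of Ckm, 0.847 CPM, was in replicate 4.

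**Figure D1:**
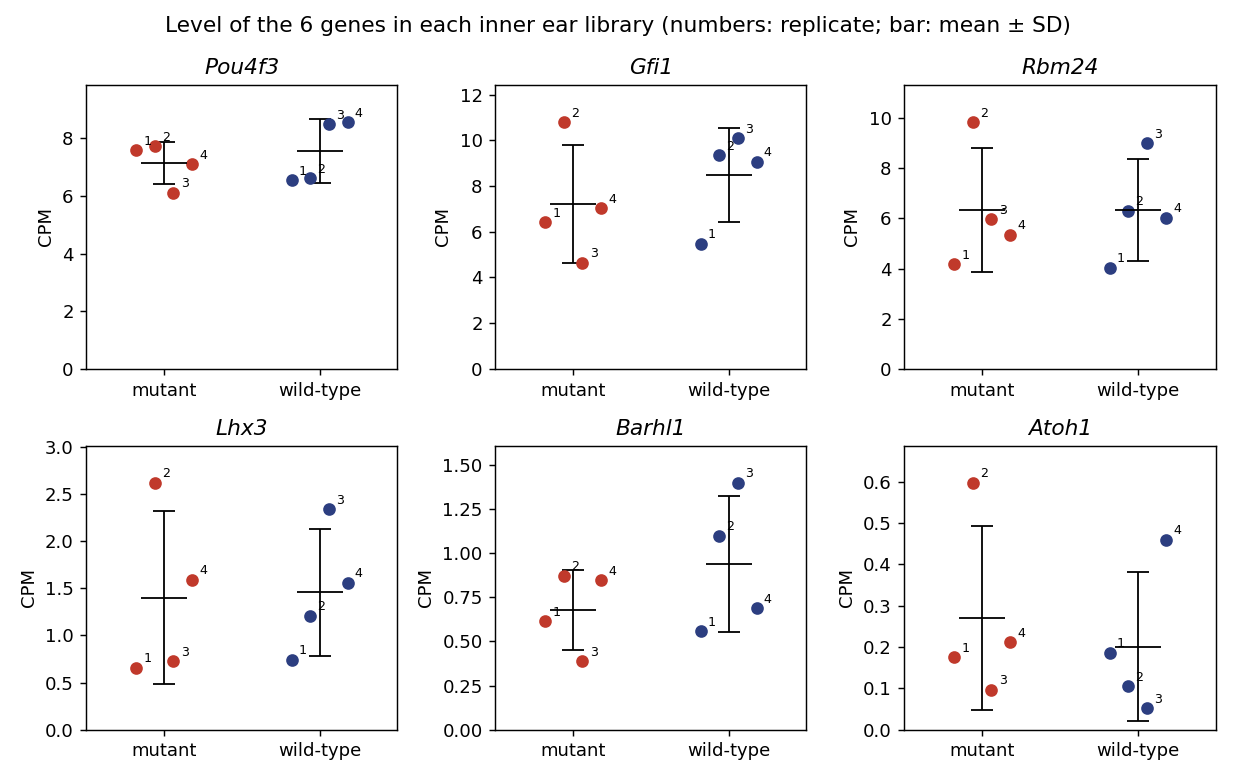
Level of the 6 genes in CPM, linear axes from 0, mutant left of wild-type. Each point is 1 library with its replicate number, and bars give mean ± SD (n = 4 each). The genotypes overlap for each gene, and mutant replicate 2 is the highest mutant library in all 6 panels.

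Of 21392 genes tested 9, or 0.0421%, were called at an edgeR adjusted p under 0.05, and 0 of the 5 tested hair cell factors were among them. The called genes were 1 higher in mutant (0.00467%) and 8 lower in mutant (0.0374%), while DESeq2 called 44 higher and 69 lower and a fit with neighbouring title numbers as a replicate block called 17 higher and 12 lower. At an unadjusted p under 0.05 edgeR found 1134 genes, 5.3% of those tested, and 0 of the 5. DESeq2 and limma-voom called 0 of the 5 as well. Levels did not overlap between the genotypes for 575 genes, 2.69% of those tested, and for 0 of the 5. The log2 fold changes of all 5 were below 0, from -0.46 to -0.0016, as were those of 11051 of the 21392 genes tested (median -0.0061). The 5 are not independent, since several varied together across libraries, and the signs of Lhx3 and Rbm24 turned with single libraries left out. The intervals of Lhx3 and Barhl1 reach down to folds of 0.429 and 0.388, whereas that of Pou4f3 ends at 0.749.

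Per kilobase of merged exons the order of levels was Pou4f3, Gfi1, Rbm24, Lhx3, Barhl1 and Atoh1. Mutant libraries averaged 2.97 ± 0.306, 2.26 ± 0.806 and 1.81 ± 0.703 CPM per kilobase for the first 3 and wild-type libraries 3.15 ± 0.466, 2.67 ± 0.645 and 1.82 ± 0.584 (SD, n = 4 each). Pou4f3 exceeded Gfi1 in 6 of 8 libraries and Gfi1 exceeded Rbm24 in 7 of 8, and the ranges of these neighbours overlap. A step separates them from Lhx3, at 0.459 ± 0.302 CPM per kilobase in mutant and 0.481 ± 0.221 in wild-type libraries, which lay below Rbm24 in 8 of 8 libraries. Barhl1 followed at 0.174 ± 0.0582 and 0.240 ± 0.0993, below Lhx3 in 8 of 8 libraries, and it exceeded Atoh1, at 0.128 ± 0.105 and 0.0946 ± 0.0855, in 6 of 8 (mutant before wild-type, SD, n = 4 each).

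**Figure D2:**
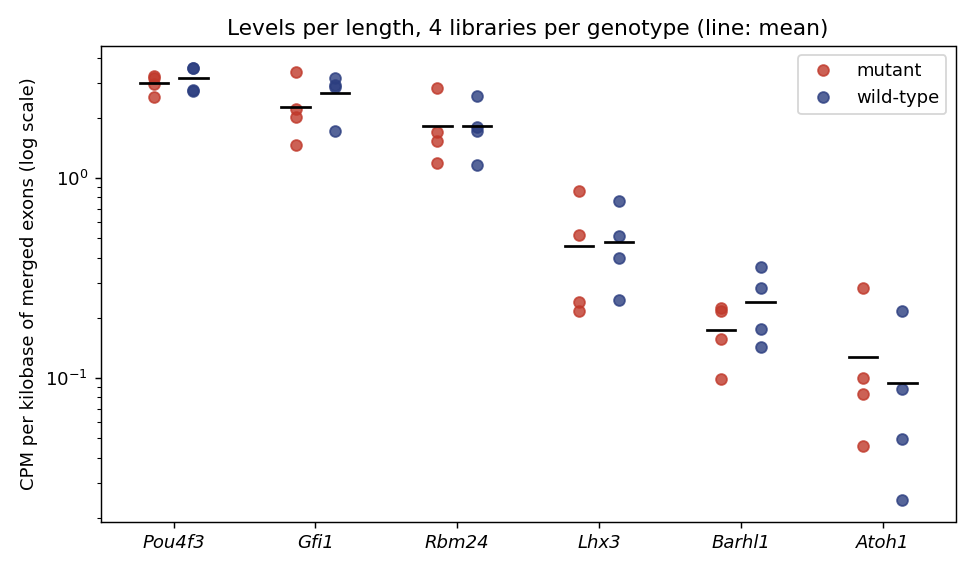
Level per kilobase of merged exons on a log axis, 1 point per library, mutant left of wild-type for each gene, with a line at the mean of 4 libraries. Pou4f3, Gfi1 and Rbm24 lie above 1 CPM per kilobase in each library and the other 3 genes below it.

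Several of the 5 tested genes varied together across libraries. Log2 CPM of Gfi1 and Lhx3 ran together with Pearson's r = 0.862 (exact permutation p = 0.0107, adjusted over 10 pairs 0.0355, n = 8) and Spearman's rho = 0.833 (p = 0.0154, adjusted 0.0513). For Lhx3 and Rbm24 r was 0.863 (exact permutation p = 0.00766, adjusted 0.0355, n = 8) and rho was 0.738 (p = 0.0458, adjusted 0.0764). For Gfi1 and Barhl1 r was 0.848 (exact permutation p = 0.00766, adjusted 0.0355, n = 8) and rho was 0.905 (p = 0.00456, adjusted 0.0456), the only pair past the threshold by both measures. With the 2 libraries farthest from the median of the gene named first left out, r was 0.802, 0.731 and 0.614 for these pairs (n = 6). The other 7 pairs did not pass after adjustment, and Pou4f3 with Rbm24 had the lowest r, 0.428. The title forms hold 4 libraries each, too few for values within them, and the points share library and whatever amount of sensory tissue each library holds.

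The genes closest to each factor in this pattern were sought among 15298 or 15299 expressed genes, by the root mean square difference in log2 CPM centred over the 8 libraries. For Gfi1 the nearest was Otof (0.0457), which encodes otoferlin of the hair cell ribbon synapse. Otof had 34.7, 62.3, 27.2 and 37.5 CPM in mutant replicates 1 to 4 and 30.8, 53.6, 54.9 and 49.5 CPM in wild-type replicates 1 to 4, with its high and low libraries where Gfi1 had them. Next came Pls1 (0.0794), an actin-bundling protein of stereocilia, and Cabp2 (0.107), a calcium sensor of hair cell synapses, where the median candidate lay at 0.451 from Gfi1. For Rbm24 they were Myo15 (0.107), the motor that lengthens stereocilia, Fank1 (0.126) and Sh2d4b (0.127), against a median of 0.468.

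Among the nearest to Barhl1 were Tmem255b (0.184) and Espnl (0.213), an espin-like protein of the hair bundle, against a median of 0.517. For Lhx3 they were Cfap206 (0.253), a protein of motile cilia, Xirp2 (0.270), an actin-binding protein of muscle and hair bundles, and Skor1 (0.272), a transcriptional corepressor, against 0.698. Pou4f3, with its small spread, had as neighbours Kdm6a (0.0799), a histone demethylase, Ttc39b (0.0860) and the nuclear transport factor Cse1l (0.0866), against 0.248.

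Not all hair cell genes followed this pattern, as a few chosen after their values were seen show. Slc26a5, the motor prestin of outer hair cells, had 4.52, 1.98, 4.12 and 4.61 CPM in mutant replicates 1 to 4 and 3.20, 1.79, 3.75 and 2.90 CPM in wild-type replicates 1 to 4. It was lowest in replicate 2 of each genotype, where Gfi1 was high. Ocm, oncomodulin, a calcium buffer mainly of outer hair cells, was likewise lowest in mutant replicate 2 (24.7 CPM) and wild-type replicate 2 (34.5 CPM). Loxhd1, a stereociliary membrane protein, was at 14.0 CPM in mutant replicate 2 and 15.4 CPM in wild-type replicate 3, its highest libraries, as for Rbm24 and Lhx3.

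**Figure D3:**
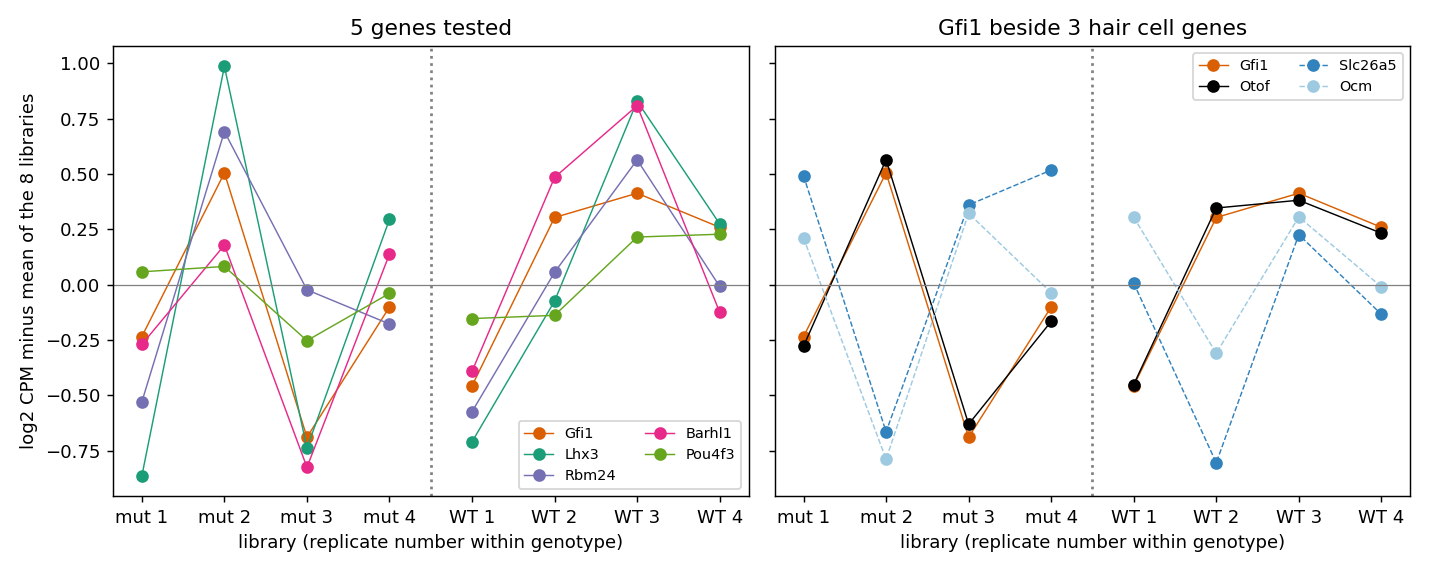
Log2 CPM minus the mean of the 8 libraries, for the 5 tested genes (left) and for Gfi1 beside Otof, Slc26a5 and Ocm (right), mutant libraries left of wild-type. Replicates have no order and thin lines only join the points of 1 gene. Gfi1 and Otof lie close together, whereas Slc26a5 and Ocm are low in replicate 2 of both genotypes.

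To set the factors against other hair cell genes in each library, the mean log2 CPM of 20 hair cell markers was subtracted from that of each gene. The markers did not all vary alike, as Slc26a5 and Ocm show above, so their mean is not a measure of hair cell number. The marker mean itself was 3.72, 4.10, 3.81 and 3.90 in mutant replicates 1 to 4 and 3.59, 4.03, 4.14 and 3.94 in wild-type replicates 1 to 4. Relative to it, Gfi1 averaged -1.08 ± 0.370 in mutant and -0.860 ± 0.168 in wild-type libraries (SD, n = 4 each), a difference of -0.22 (two-sided exact permutation p = 0.371) that was -0.054 without mutant replicate 3 and -0.35 without mutant replicate 2. Barhl1 averaged -4.30 ± 0.381 in mutant and -3.95 ± 0.348 in wild-type libraries, a difference of -0.34 (exact permutation p = 0.257) that was -0.16 without mutant replicate 3 and -0.21 without wild-type replicate 3. The differences were -0.03 for Pou4f3 (p = 0.83), -0.12 for Lhx3 (p = 0.771) and 0.03 for Rbm24 (p = 0.886), by the same exact permutation test of 4 against 4 libraries, whose smallest possible p is 0.0286.

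Subtracting the markers narrowed the spread over all 8 libraries for 4 of the 5 genes. The SD in log2 CPM was 0.290 after and 0.436 before for Gfi1, 0.288 and 0.453 for Rbm24, 0.558 and 0.719 for Lhx3, and 0.385 and 0.515 for Barhl1. For Pou4f3 it was 0.182 after and 0.176 before.

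**Figure D4:**
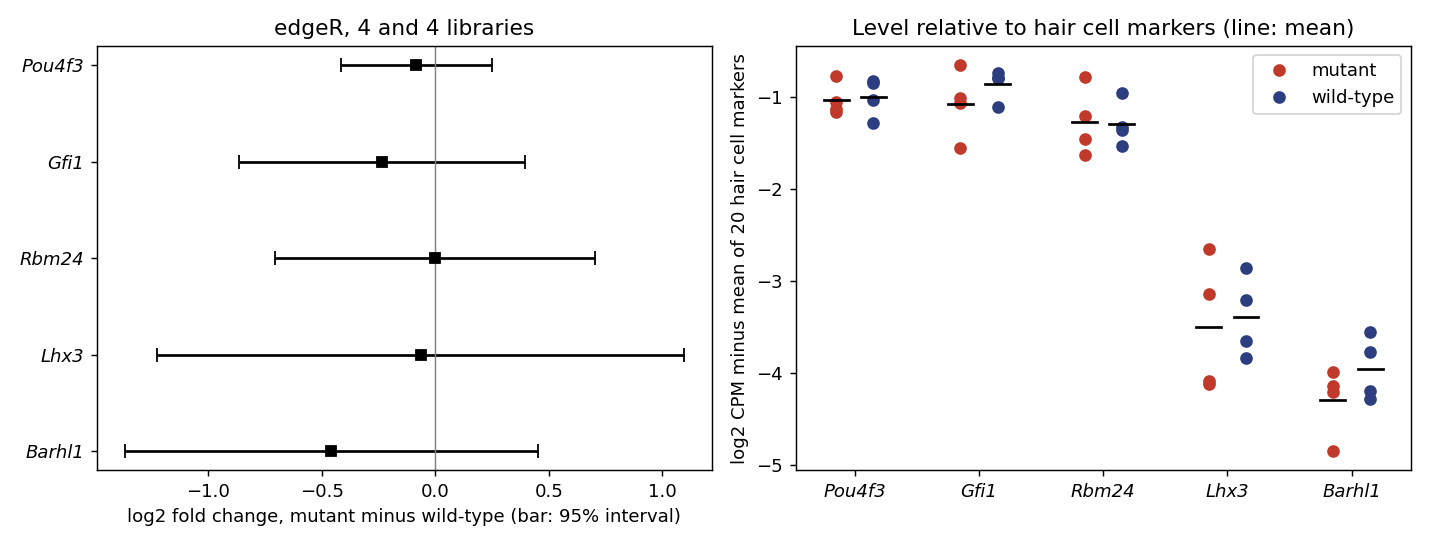
Left, log2 fold change (mutant minus wild-type) of the 5 tested genes with 95% intervals, all of which include 0. Right, log2 CPM minus the mean of 20 hair cell markers, 1 point per library with a line at the group mean, mutant left of wild-type. The genotypes overlap for each gene.

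The hair cell markers themselves did not set the genotypes apart. Of 20 tested 6 had positive and 14 negative log2 fold changes, with a median of -0.09, and 0 were called in either direction. Those with the smallest p were Tmie of the transduction complex (0.20, SE 0.13) and the myosin Myo6 (0.14, SE 0.09). Among the 10 defining markers 3 were positive and 7 negative (median -0.08), led by Slc26a5 (0.39, SE 0.31) and the transduction protein Lhfpl5 (-0.16, SE 0.18). Supporting cell markers had 3 positive and 5 negative of 8 tested (median -0.01, 0 called), led by the calcium-binding S100a1 (-0.37, SE 0.17) and the glutamate transporter Slc1a3 (0.25, SE 0.13).

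The regulators that work with or against these factors gave no call either. E proteins pair with Atoh1 on DNA, and Id proteins capture them. Of these 7 genes 6 were positive and 1 negative (median 0.12, 0 called). The negative one was the E protein gene Tcf3, at 47.5, 52.1, 48.4 and 45.3 CPM in mutant replicates 1 to 4 and 61.7, 66.9, 51.9 and 63.8 CPM in wild-type replicates 1 to 4. Its only overlap was between mutant replicate 2 and wild-type replicate 3, yet it did not pass (log2 fold change -0.34, SE 0.09, edgeR adjusted p = 0.879). Lymphoid progenitor markers summed to 81.0, 169, 65.8 and 113 CPM in mutant replicates 1 to 4. In wild-type replicates 1 to 4 they summed to 207, 229, 111 and 238 CPM. The part of these or other cells in the level of Tcf3 was not tested. Id2 had a log2 fold change of 0.52 (SE 0.28).

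Notch signalling holds back Atoh1 in supporting cells. Of its 10 listed ligands, receptor and effectors 9 were tested, 7 positive and 2 negative (median 0.10, 0 called), led by the effector Hes1 (0.25, SE 0.12) and the receptor Notch1 (0.20, SE 0.11). Of 15 other otic and hair cell transcription factors 13 were tested, 5 positive and 8 negative (median -0.0028, 0 called). The smallest p belonged to Lmx1a (-0.20, SE 0.15) and Neurod1 (-0.86, SE 0.68), which turned to 0.20 without wild-type replicate 3. Reported targets of Atoh1 or Pou4f3 had 6 positive and 2 negative of 8 (median 0.11, 0 called), led by the nuclear receptor Nr2f2 (0.17, SE 0.13) and the annexin Anxa4 (0.13, SE 0.11).

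Of 13 other splicing regulators 7 were positive and 6 negative (median 0.01, 0 called), and the genotypes did not overlap in the leading pair. Esrp1, an epithelial splicing factor needed for cochlear development, had 10.4, 10.9, 12.5 and 10.4 CPM in mutant replicates 1 to 4 and 13.6, 13.2, 15.7 and 13.8 CPM in wild-type replicates 1 to 4. Each mutant library lay below each wild-type library, as in 2.69% of all genes in either direction, and the log2 fold change of -0.35 did not pass (SE 0.11, edgeR adjusted p = 0.907). Rbfox2, which regulates exons in muscle and brain, had a log2 fold change of 0.16 (SE 0.06, edgeR adjusted p = 0.924).

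Close relatives of the factors are known from other cells and could share reads with them. Pou4f1 and Pou4f2, which mark sensory neurons, differed by -0.06 (SE 0.28) and 0.00016 (SE 0.20) on the log2 scale, and Pou4f1 stood at 9.06 to 20.1 CPM in mutant and 10.5 to 19.7 CPM in wild-type libraries. Gfi1b, the erythroid relative of Gfi1, had 5.93, 4.92, 1.5 and 2.33 CPM in the mutant replicates and 5.94, 13.0, 2.60 and 9.61 CPM in the wild-type replicates (log2 fold change -1.08, SE 0.56, edgeR adjusted p = 0.927). It was low in wild-type replicate 3, where Gfi1 was highest in its genotype. Rbm38, the relative of Rbm24 found in erythroid cells, averaged 22.9 CPM in mutant and 45.9 CPM in wild-type libraries (log2 fold change -1.0, SE 0.44, edgeR adjusted p = 0.924). Atoh8 had a log2 fold change of -0.01 (SE 0.14). Lhx4, Barhl2 and Atoh7 did not pass the filter, with 0 to 0, 0 to 3 and 0 to 1 counts per library in mutant and 0 to 8, 0 to 10 and 0 to 0 in wild-type libraries. Over the 5 relatives tested 1 was positive and 4 negative (median -0.06, 0 called).

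Lists of the other cell types that carry these factors had 0 called members. Neutrophil lineage markers had 1 positive and 15 negative of 16 (median -0.35), led by the granule proteases Prtn3 (-0.51, SE 0.50) and Ctsg (-0.55, SE 0.56). All 9 lymphoid progenitor markers were negative (median -0.96), among them Dntt (-1.66, SE 0.38, edgeR adjusted p = 0.597, DESeq2 adjusted p = 0.0104), which adds bases at antigen receptor joints, and Vpreb3 (-1.11, SE 0.29). Of 11 tested skeletal muscle markers 3 were positive and 8 negative (median -0.25), led by Mylpf (-0.60, SE 0.29) and Myh4 (-0.70, SE 0.46). Of 7 cerebellar markers 3 were positive and 4 negative (median -0.20), led by Zic2 (0.17, SE 0.08) and Fat2 (-0.29, SE 0.19). Of 3 pituitary markers 1 was positive and 2 negative (median -0.25), led by Pomc (-0.25, SE 0.37) and Gh (-0.39, SE 0.86, and 0.96 without wild-type replicate 4), and the only motor neuron marker tested was the choline transporter Slc5a7 (0.54, SE 0.35).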

How the data were processed

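The authors deposited 1 file of gene counts per library, whole numbers per symbol that were not normalized. The submitters' processing notes list FastQC, STAR, HTSeq and mm10 and give no version of the tools. Libraries were made from total RNA with a kit (CORALL, Lexogen) that carries molecular identifiers, per the labels' protocols. Annotation, strand setting and use of the identifiers were not stated there.

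Genotype groups follow the source names. Of 47517 symbols 45236 are GENCODE M21 gene names (GRCm38), which gave coordinates and exon lengths. The counts were fitted with edgeR 4.0.16 in R 4.3.3 (TMM, default expression filter, robust quasi-likelihood test, genotype as the only term, Benjamini-Hochberg adjustment over 21392 genes, threshold 0.05). An SE is the log2 fold change divided by the square root of F. Log2 CPM used a prior count of 2. No 2 libraries agreed within sampling noise (lowest chi-square per degree of freedom 17.3). Correlations and permutation tests used Python 3.11.15. Floors and intervals from counts cover counting error only.

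The genes, the 15 lists and the rule for named genes were chosen with earlier results of these data known. Named genes were the 6 factors, their tested relatives, the 2 genes with the smallest p in each list, and the 3 nearest in pattern among genes with a mean of at least 1 CPM, of which 1 is not reported here. Mpo, Ckm, Pygm, Gabra6, Zic1, Cbln1, Cbln3, Neurod2, Pcp2, Pou1f1, Tshb, Loxhd1 and Ocm were named after their values were seen. Alternatives were 2 normalizations, 2 filters, DESeq2 1.42.0, limma-voom (limma 3.58.1), each library left out, title form and neighbouring title numbers, and for levels the marker list, prior count and exon length.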

Additional observations from a re-analysis of the deposited data

Results flagged for a closer look

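In 6 of 86 groups of 4 libraries 1 library stood apart, by a gap to its nearest neighbour that took up more of the range of the group than Dixon's test allows. Chance does this in about 5% of such groups. Gfi1 relative to hair cell markers was -1.11 in wild-type replicate 1, against -0.794, -0.793 and -0.745 in the other wild-type libraries (gap over range 0.865). Among mutant libraries replicate 2 stood apart for Ctsg (11.2 CPM against 3.47 to 4.29, 0.894), Prtn3 (25.1 CPM against 7.99 to 10.5, 0.854) and Neurod1 (2.21 CPM against 0.702 to 0.921, 0.855). Among wild-type libraries replicate 3 stood apart for Neurod1 (5.57 CPM against 0.735 to 1.29, 0.886) and for Pou4f1, where it was low (10.5 CPM against 18.7 to 19.7, 0.892).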

How the results depend on the processing

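No alternative called any of the 6 factors. Gfi1, Pou4f3 and Barhl1 kept a negative log2 fold change in every alternative that gave one (-0.49 to -0.073, -0.14 to -0.015 and -0.63 to -0.20). Rbm24 turned to 7.3e-05 with DESeq2 size factors, 0.0036 without the filter and 0.0023 in DESeq2. With each library left out it lay between -0.30 and 0.21, Lhx3 between -0.56 and 0.25 and Atoh1 between -0.31 and 1.24. Relative to hair cell markers, Gfi1 lay between -0.35 and -0.054, Barhl1 between -0.46 and -0.16, Pou4f3 lay between -0.13 and 0.027, Lhx3 between -0.40 and 0.091 and Rbm24 between -0.14 and 0.14 in the same runs. Pou4f2, near 0, turned to -0.0014 with upper quartile scaling, -0.00036 with the stricter filter, -0.015 with the block and -0.026 in limma-voom. Gh turned to 0.081 with title form, 0.18 with the block and 0.18 in limma-voom. With single libraries left out Pou4f2 lay between -0.098 and 0.14, Pou4f1 between -0.24 and 0.14, Atoh8 between -0.10 and 0.091, Neurod1 between -1.36 and 0.20 and Gh between -0.75 and 0.96. Dntt was called in DESeq2 (-1.66, adjusted p = 0.0104). The cause of these turns was not tested.

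Over all genes 9 were called, 5 with title form, 113 in DESeq2, 17 in limma-voom, and 6 to 14 with single libraries left out, most without mutant replicate 4. With neighbouring title numbers as a replicate block 29 were called, none of them one of the factors. The deviations of such assumed pairs correlated at 0.128, 0.252, 0.187 and -0.0384, and those of all other pairings at -0.148 to 0.152. Mutant replicates 2 and 3 correlated best with their assumed partners, whereas mutant replicate 1 correlated best with wild-type replicate 4 (0.152). These values do not settle whether the samples are paired. The labels do not explain the numbers, and the main fit did not use them. The stricter filter gave no value for Barhl1 or Atoh1, and Atoh1 was not fitted with title form, the block or limma-voom. Depth limits Atoh1, with 1 to 13 counts per library, and Barhl1, with 8 to 27.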
